A study of Mus musculus with 6 samples.

Results

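The mesonephros and duct genes described here are 9 genes that mark the embryonic kidney and the ducts lying beside the fetal gonad, namely Pax2, Pax8, Emx2, Lhx1, Cdh16, Gata3, Wfdc2, Spp1 and Cdh6. They were picked by name, and each was measured through every probe set whose platform annotation names that gene alone. Of the 9 genes, 7 had such a probe set, out of 18193 genes named on the array, and they held 10 probe sets. Pax2 and Spp1 had none and were not analysed here. Pax8, Lhx1 and Cdh6 had 2 probe sets each, while Emx2, Gata3, Cdh16 and Wfdc2 had 1.

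Ovaries of E15.5 mouse embryos were measured on 6 arrays. A conditional knockout of Dmrt1, which encodes a DM domain transcription factor, supplied 3 of them and wild type the other 3. The labels give the genotype of the mutant group as a Dmrt1 knockout and that of the control group as WT, and the series text calls the removal conditional. Strain, the Cre driver and whether ovaries were pooled are not given in the sources used here. The comparison asks which transcripts differ in the fetal ovary when Dmrt1 is removed. Nothing in the labels says that the replicates came from separate animals, so p-values measure only how these samples scatter, and that scatter may be technical.

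The mesonephros is a transient kidney that develops side by side with the gonad from the intermediate mesoderm. Its nephric (Wolffian) duct and the later Müllerian duct run along the ovary, and the Müllerian duct gives rise to the oviduct and uterus. PAX2 and PAX8 are paired-domain transcription factors that act together to establish the nephric lineage, LHX1 and GATA3 act downstream of them in the nephric duct, and EMX2 is a homeobox factor needed for both the urogenital ducts and the gonad. Several of these genes are therefore not restricted to ducts: Emx2, for example, is also known from the coelomic epithelium of the gonad itself.

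The median intensity of an array was 14.4 to 14.7 for wild type and 13.1 to 13.4 for the knockout. Arrays of the same group correlated at 0.985 to 0.993 (log2 values), and arrays of different groups at 0.973 to 0.980. The Dmrt1 probe set lay under the testing level used here, log2 4 or 16 intensity units, on every array, with knockout values of 5.97 to 8.55 and wild-type values of 8.47 to 13.02, and it is not known here whether it lies inside the removed part of the gene, so it checks nothing. Xist, the RNA that coats the inactive X chromosome, stood apart on knockout replicate 1, where its 3 probe sets read 3.15 to 4. They read 570 to 1090 on knockout replicates 2 and 3 and 934 to 2718 in wild type. Each of the 3 was also lower on knockout replicates 2 and 3 than on any wild-type array. Y-linked transcripts (Kdm5d, Uty and Eif2s3y, 9 probe sets) read 1.58 to 3.82 on all 6 arrays, so knockout replicate 1 carried neither Xist nor Y-linked signal above the floor. Several results that this array moves are given with and without it. Markers of the labelled tissue were present: all 8 pregranulosa markers and all 8 germ cell markers were above the testing level on at least 3 arrays.

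In the knockout ovaries, the mesonephros and duct genes showed 0 differences that passed the test. Testing required a probe set to reach that level on 3 or more of the arrays. Of the 7 measured genes 6 met this, and 0 of the 6 had a limma adjusted p under 0.05, where 3.55% of all 11897 tested genes did. At an unadjusted p under 0.05 the count was also 0 of 6, against 17.4% of all tested genes. Counted by probe set, 0 of 7 tested member probe sets were called, against 6.60% of all 22040. The median log2 difference (knockout minus wild type) over the 6 genes was 0.10, against 0.02 over all tested genes, with 4 of the 6 differences positive and 2 negative.

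**Figure D1:**
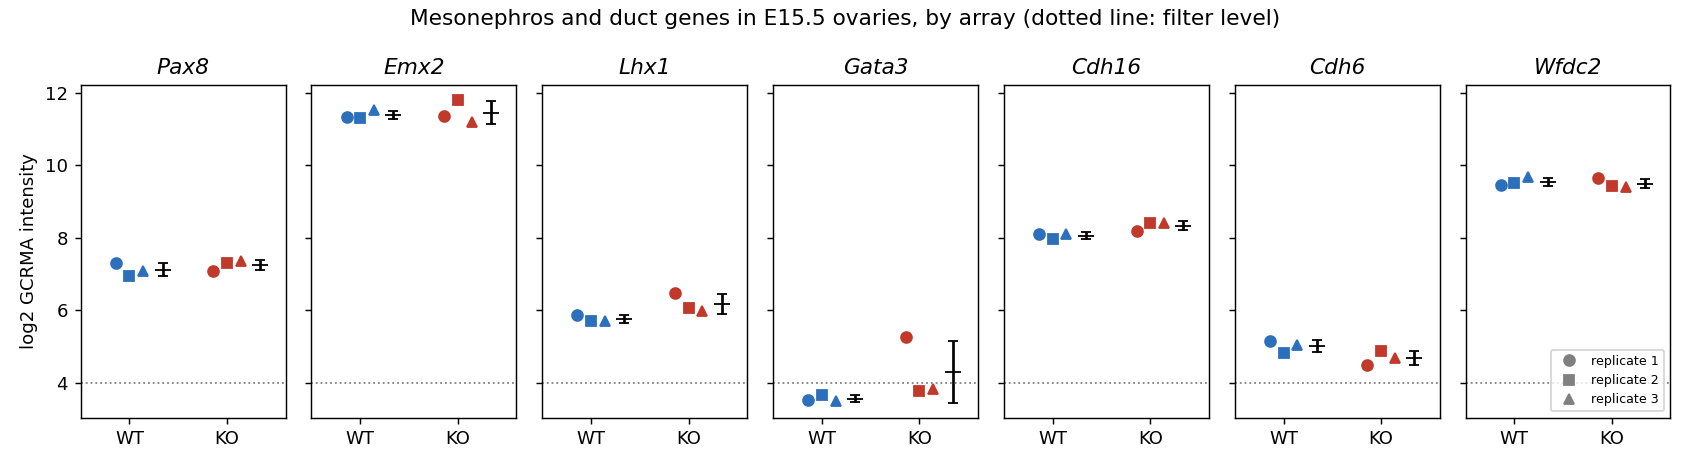
Log2 GCRMA intensity (vertical axis) of the 7 measured genes on each of the 6 arrays, wild type in blue and knockout in red, with the replicate number given by the symbol. The black bar is the group mean with its SD (n = 3) and the dotted line is the testing level of log2 4. Lhx1 and Cdh16 have all 3 knockout points above the wild-type points, and Gata3 is over the dotted line on knockout replicate 1 alone.

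Among the transcription factors, Lhx1 came closest to the threshold with all 6 arrays. LHX1, a LIM homeodomain factor, is required for the nephric duct to form and extend. Its brighter probe set (1450428_at) read, in intensity units and in the order of the replicates, 88.5, 66.6 and 62.6 in knockout ovaries and 58.8, 51.9 and 51.6 in wild type. All 3 knockout arrays were above all 3 wild-type arrays, and knockout replicate 1 was the highest. The log2 difference was 0.41 ± 0.19 (SE, 3 arrays a group, fold 1.33), with a 95% interval of -0.01 to 0.83, and it did not pass (limma adjusted p = 0.255). Without knockout replicate 1 it was 0.26 (limma adjusted p = 0.512), below the 0.34 of Cdh16 in the same fit. Groups that do not overlap were common in these data, at 26.5% of all tested probe sets, and 11.2% were higher throughout in knockout.

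The other Lhx1 probe set (1421951_at) was dim and its groups overlapped. It read 16.9, 20.7 and 11.8 in knockout and 11.6, 16.7 and 17.7 in wild type, with 2 arrays of each group over the testing level. Its difference was 0.09 ± 0.25 (SE, limma adjusted p = 0.882), with an interval of -0.47 to 0.65 that contains the value of the brighter probe set.

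Pax8 overlapped between the groups. PAX8 is the paired-domain factor of the nephric lineage that persists in the Müllerian duct epithelium and its adult derivatives. Its brighter probe set (1418208_at) read 136, 158 and 164 on the knockout arrays and 159, 123 and 135 on the wild-type arrays. Wild-type replicate 1 lay above knockout replicates 1 and 2. The difference was 0.13 ± 0.17 (SE, 3 arrays a group, limma adjusted p = 0.710), and its 95% interval of -0.24 to 0.51 corresponds to folds of 0.84 to 1.43. Without knockout replicate 1 the difference was 0.22 (limma adjusted p = 0.593). The second Pax8 probe set (1446561_at) lay near the floor on every array, with values of 3.30 to 4.10 in knockout ovaries against 3.44 to 3.88, and was not tested.

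Emx2 read 2626, 3561 and 2343 intensity units in knockout and 2582, 2521 and 2932 in wild type (1456258_at). The knockout arrays spanned the wild-type range on both sides, with an SD of 0.31 log2 units in knockout and 0.12 in wild type. The difference was 0.07 ± 0.15 (SE, 3 arrays a group, limma adjusted p = 0.847), with folds of 0.84 to 1.31 inside the 95% interval. Emx2 read highest on knockout replicate 2, and without that array the difference was -0.11 (limma adjusted p = 0.571). Emx2os, the transcript antisense to Emx2, was looked at after the values were seen. It lay under the testing level on all 6 arrays, with values of 11.6 to 13.2 in knockout ovaries against 10.1 to 11.8.

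Gata3 was over the testing level on a single array. GATA3, a zinc finger factor, acts in nephric duct guidance and is also known from sympathetic neurons, trophoblast and T cells. Its probe set (1448886_at) read 38.6 on knockout replicate 1, against 13.7 and 14.2 on the other knockout arrays and 11.6, 12.6 and 11.1 in wild type. Knockout replicate 1, the array on which Xist was near the floor, thus stood 2.41-fold above the testing level, which the other 5 arrays did not reach. With 1 of 6 arrays over the level, Gata3 was not tested. Its group means were log2 4.29 ± 0.84 (SD, n = 3) in knockout and 3.55 ± 0.09 in wild type, and without knockout replicate 1 the difference of 0.74 became 0.25, between values that all lie under the level.

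Markers of sympathetic and adrenal medulla cells, in which GATA3 also acts, were mostly too dim to be compared with that pattern. Th, Dbh, Phox2a, Sox10 and Chga, 5 of the 6 annotated markers of that list, were under the testing level on every array. The summed level of the 6, carried by Hand2, was 594 on knockout replicate 1, 1000 and 706 on knockout replicates 2 and 3, and 465 to 657 in wild type. Some duct and tubule genes outside the members read highest on knockout replicate 1. Wnt9b, a WNT ligand of the nephric duct, read 82.7 on knockout replicate 1 and 29.6 to 44.2 on the other 5 arrays through its brighter probe set. Its other probe set did not follow, with 5.61 on knockout replicate 1 and 5.52 to 7.40 on the other 5 arrays. Cubn, an endocytic receptor of proximal tubules, read 24.95 against 9.60 to 14.4. Other proximal tubule genes did not: Hnf4a read lowest on that array, at 8.53, and Lrp2, the partner of cubilin, read 11.1 there, 14.1 and 10.8 on the other knockout arrays and 17.2 to 20.1 in wild type. Lrp2 was thus over the testing level on the wild-type arrays alone and was tested through them. Wnt9b, Cubn and Lrp2 were chosen after their values were seen. Of the 44 tested genes of the related lists described below, 7 (15.9%) read highest on knockout replicate 1, against 16.8% of all tested genes. The cause of the Gata3 value on that array was not tested.

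The adhesion genes went in opposite directions, and neither passed. CDH16, the kidney-specific cadherin of tubule and duct epithelium, read 291, 340 and 336 intensity units in knockout and 277, 249 and 275 in wild type (1448906_at). All 3 knockout arrays were above all 3 wild-type arrays, by a margin of 291 against 277 at the closest. The log2 difference was 0.27 ± 0.15 (SE, 3 arrays a group, fold 1.21, limma adjusted p = 0.333), with folds of 0.96 to 1.51 inside the 95% interval.

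CDH6, a cadherin of the developing nephron, read 22.6, 29.5 and 25.7 in knockout and 35.6, 28.3 and 32.9 in wild type (1442257_at). Knockout replicate 2 lay above wild-type replicate 2, so the groups overlapped. The difference was -0.32 ± 0.19 (SE, 3 arrays a group, limma adjusted p = 0.379), with folds of 0.60 to 1.07 inside the interval. The second Cdh6 probe set (1450288_at) was under the testing level everywhere, with values of 4.71 to 5.49 in knockout ovaries against 4.33 to 5.21.

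Wfdc2 overlapped between the groups. It encodes the secreted four-disulfide core protein HE4, known from epididymal and oviductal epithelium. It read 796, 691 and 680 in knockout and 701, 731 and 812 in wild type (1424351_at), so that each group held values within the range of the other. The difference was -0.05 ± 0.13 (SE, 3 arrays a group, limma adjusted p = 0.867), and it was -0.12 without knockout replicate 1 and 0.09 with each array centred on its median, a scaling that raised the median difference of all tested probe sets by 0.14. Its 95% interval, -0.34 to 0.24, was the narrowest of the 7 and allows folds of 0.79 to 1.18.

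**Figure D2:**
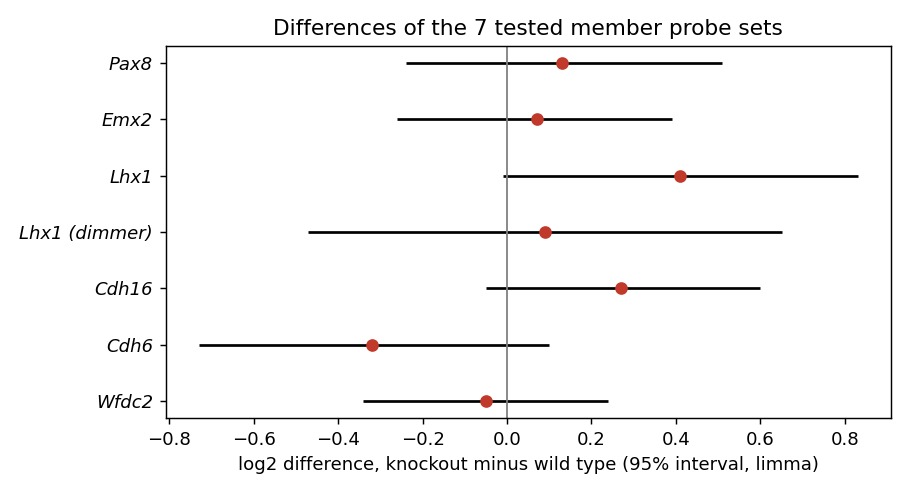
Log2 difference between knockout and wild type (horizontal axis) for the 7 tested member probe sets, with limma's 95% interval as a line. All 7 intervals contain 0, and that of Lhx1 starts at -0.01.

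With the values scaled as deposited, the intervals bound what these arrays could have missed. Folds over 1.31 lay outside the interval for Emx2 and folds over 1.18 for Wfdc2, while the interval of Lhx1 reached 1.78 and that of Cdh6 reached down to 0.60. With each array centred on its median the log2 differences were 0.20 for Emx2 and 0.09 for Wfdc2, so the bounds depend on the scaling. A p-value that misses the threshold does not show that the levels are equal within these bounds.

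The tested members did not vary as a block among the replicates. Over the deviations of the 6 arrays from their group means, the 15 pairs of the 6 tested genes had Pearson correlations from -0.67 to 0.91, and 8 of the 15 were positive. The highest of the 15 were those among Cdh16, Cdh6 and Pax8, at 0.91 for Cdh16 with Cdh6, 0.86 for Cdh16 with Pax8 and 0.83 for Cdh6 with Pax8. Wfdc2 ran against these 3, at -0.55, -0.50 and -0.67, and Emx2 was close to 0 with Pax8 (0.04). The genes whose deviations were most like the mean of the 6 members were Gm30058 (0.9999), Prim2, a primase subunit (0.9968), and Zfp160 (0.9964). Such values are a description of 6 arrays that share their group means and processing, and 2.69% of all other tested genes also exceeded 0.9 with that mean. No such share was computed for pairs of genes.

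**Figure D3:**
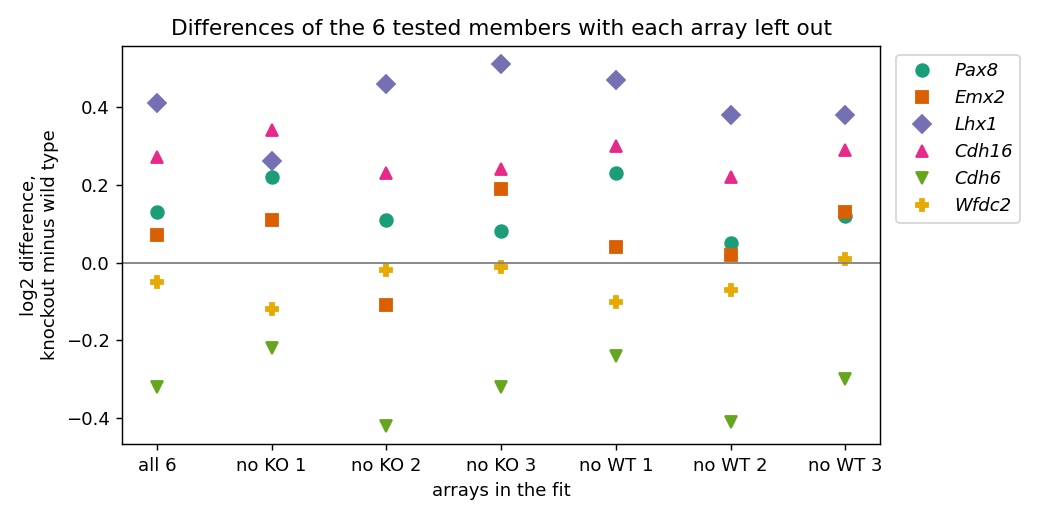
Log2 difference between knockout and wild type (vertical axis) of the 6 tested members with all 6 arrays and with each array left out in turn (horizontal axis). Lhx1 and Cdh16 stay above 0 and Cdh6 below 0 in all 7 fits, Emx2 falls below 0 without knockout replicate 2, and Wfdc2 reaches 0.01 without wild-type replicate 3.

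Other genes of the mesonephros, ducts and kidney were read from 5 lists holding 65 different genes, of which 60 were annotated and 44 tested. Through the brightest probe set of each gene, 0 of the 44 rose and 0 fell, against 152 (1.28%) and 270 (2.27%) of all tested genes, and 9 of the 44 had an unadjusted p under 0.05, against 17.4%. Lrp2 was among the 9, though over the testing level on the wild-type arrays alone. The median differences were -0.18 over 10 nephric duct regulators, -0.08 over 9 genes of the nephrogenic mesenchyme, 0.11 over 8 Müllerian duct genes, 0.09 over 12 genes of duct and tubule epithelium and -0.24 over 5 genes of renal tubule and podocyte.

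**Figure D4:**
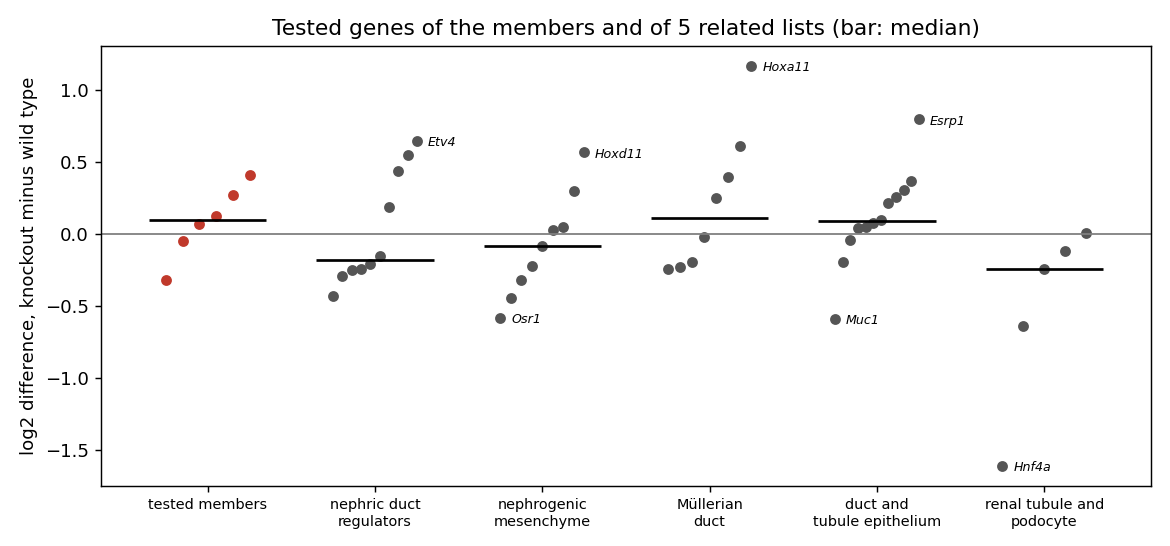
Log2 difference between knockout and wild type (vertical axis) of each tested gene, for the 6 tested members (red) and the 5 related lists (grey), with the list median as a black bar. The outermost points, Hnf4a at -1.61 and Hoxa11 at 1.17, include arrays under the testing level and come to -1.30 and 0.69 with those arrays set at it; 0 of the genes drawn passed the test.

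Among the nephric duct regulators the smallest p belonged to Etv4, a target of RET and FGF signalling. It read 31.3, 32.4 and 26.9 in knockout and 19.7, 14.9 and 24.1 in wild type, a difference of 0.65 ± 0.21 (SE, 3 arrays a group, limma adjusted p = 0.108). Ret itself, the receptor of GDNF in the duct, read 25.5, 23.9 and 28.2 against 46.3, 25.6 and 35.7 (difference -0.43, limma adjusted p = 0.325), so the 2 genes pointed in opposite directions. Ret lay outside the rule for named genes.

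The probe sets of Bmp7, a BMP ligand of duct and nephron progenitors, disagreed. Its brighter probe set read 150, 146 and 129 in knockout and 169, 173 and 149 in wild type, a difference of -0.21 ± 0.16 (SE, limma adjusted p = 0.515). The other read 161, 193 and 181 against 114, 94.8 and 96.5 and rose by 0.81 ± 0.17 on the log2 scale (limma adjusted p = 0.0164). It was the only called probe set among those of the 5 lists. That is 1 of 11 tested probe sets in its list and 0 of 11, 14, 18 and 5 in the others, against 6.60% of all 22040. It lost its call on leaving out wild-type replicate 2 (limma adjusted p = 0.0849) or wild-type replicate 3 (0.0795) and with the replicate number as a block (0.0601).

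In the nephrogenic mesenchyme, Six2, Eya1, Gdnf, Robo2, Foxc1 and Fgf8, which build the metanephric kidney, were under the testing level on every array. Itga8, the integrin subunit through which mesenchyme receives nephronectin, had the smallest p of the list. It read 2365, 2877 and 2087 in knockout and 3202, 3163 and 3532 in wild type, a difference of -0.44 ± 0.12 (SE, 3 arrays a group, limma adjusted p = 0.0604). The groups did not overlap, and the call was not made. Without knockout replicate 1 the difference was -0.43 (limma adjusted p = 0.146). Wt1, shared by gonad and kidney, differed by 0.03 ± 0.09 (limma adjusted p = 0.914) and lay outside the rule for named genes.

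In the Müllerian list Amhr2, the receptor of anti-Müllerian hormone and also a gene of the gonad's somatic cells, had the smallest p, with a difference of 0.25 ± 0.10 (SE, 3 arrays a group, limma adjusted p = 0.172). Hoxa11, a HOX gene of the reproductive tract, lay outside the rule for named genes. It read 56.0, 26.2 and 15.6 in knockout and 16.3, 5.72 and 21.6 in wild type, so the groups overlapped, and it did not pass (limma adjusted p = 0.241). With the arrays under the testing level set at that level, the fold was 1.61. Without knockout replicate 1 the fitted difference fell from 1.17 to 0.68 (limma adjusted p = 0.515).

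Of the epithelial genes, Esrp1, a splicing factor of epithelial cells, had the smallest p. It read 803, 396 and 473 in knockout and 292, 336 and 288 in wild type, a difference of 0.80 ± 0.24 (SE, 3 arrays a group, limma adjusted p = 0.0762). Without knockout replicate 1, which read highest, it was 0.51 (limma adjusted p = 0.141). Epcam, the pan-epithelial adhesion molecule, differed by 0.10 ± 0.14 (limma adjusted p = 0.756) and lay outside the rule.

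Among kidney tubule and podocyte genes, Hnf4a, a factor of proximal tubule and endoderm, read 8.53, 17.2 and 30.3 in knockout and 39.6, 39.4 and 80.6 in wild type. All 3 knockout arrays lay below all 3 wild-type arrays. Its difference of -1.61 ± 0.43 (SE, 3 arrays a group) did not pass (limma adjusted p = 0.0540), and it was -1.13 without knockout replicate 1 (limma adjusted p = 0.122). With the knockout array under the testing level set at that level, the knockout stood at 0.41 of wild type. Alb and Afp, transcripts of the liver, an organ of endoderm, differed by -1.46 and -1.44. Neither passed (limma adjusted p = 0.431 and 0.472). Both lay outside the rule for named genes and were chosen after their values were seen, and no list of liver genes was read. Which tissue gave the Hnf4a signal was not tested. Slc34a1, Aqp2, Umod, Slc12a1 and Nphs1, which mark the differentiated nephron, were under the testing level on every array.

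The families of the members differed in what the ovary arrays registered. Pax1, Pax3, Pax4, Pax5, Pax6, Pax7 and Pax9 were all under the testing level on every array, so that Pax8 was the only PAX gene measured above it here. Of 10 EMX and LIM homeobox relatives 4 were tested, and Lhx9, a factor of the early gonad, rose. It read 1686, 1831 and 1857 in knockout and 1221, 1191 and 1253 in wild type, a rise of 1.47-fold (log2 difference 0.55 ± 0.10, limma adjusted p = 0.00916). Lhx9 lost its call on leaving out wild-type replicate 2 (limma adjusted p = 0.0587) and with the replicate number as a block (0.0547). All 5 other GATA genes were tested and 0 passed, and of the 5 cadherins 2 were tested and 0 passed, with Cdh2 at 0.27 ± 0.12 (limma adjusted p = 0.228) and Gata1 at -0.49 ± 0.29 (limma adjusted p = 0.380).

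Marker levels of other tissues in the dissected samples differed between groups in some lists. In bulk tissue, fewer cells of a type and less RNA per cell cannot be told apart. The summed intensity of 7 surface epithelium markers spanned 9278 to 10185 in knockout ovaries and 8354 to 8771 in wild type, with 0 of 6 tested genes called, Lrrn4 having the smallest p (0.46 ± 0.15, limma adjusted p = 0.109), and with Msln under the testing level throughout. That of 7 annotated stroma markers spanned 25758 to 27552 in knockout ovaries and 29176 to 32331 in wild type, with 0 of 7 called through the brightest probe set. Another probe set each of Col1a1, Dcn and Nr2f2 fell, 3 of 18 tested in the list, against 6.60% of all tested probe sets. The brightest probe sets of these genes differed by -0.25, -0.35 and -0.09. Of 6 endothelium markers 4 were tested and the receptors Flt1 and Tek fell, with sums of 1237 to 1438 and 1874 to 2154 and with Pecam1 and Cdh5 under the testing level on every array. Without knockout replicate 1 the limma adjusted p was 0.0450 for Flt1 and 0.112 for Tek. Of 9 macrophage markers Ptprc and Mrc1 fell, with sums of 2300 to 3956 and 3639 to 4642, and both calls ended without knockout replicate 1, which held the lowest sum (limma adjusted p = 0.0769 and 0.0847). In that list 8 differences were negative and 1 was positive. Over all tested genes 3.55% were called. Of 8 germ cell markers Dppa3 rose, with sums of 10835 to 15674 and 10067 to 11533. The dimmer probe set of Dazl also rose (limma adjusted p = 0.0456). It read highest on knockout replicate 1, at 374 against 133 and 243 on the other knockout arrays, and no value without that array is given for it. Dppa3 read 1182, 197 and 76.8 in knockout and 12.2, 12.1 and 18.8 in wild type, so it was tested through its knockout arrays, and without knockout replicate 1, its highest array and that with the highest sum, the fitted difference went from 4.22 to 3.13 (limma adjusted p = 0.00208). Of 8 pregranulosa markers 0 passed, with sums of 5468 to 6255 and 5371 to 5718 and the smallest p for Irx5 (limma adjusted p = 0.0600). Among the related lists described above, only duct and tubule epithelium had sums that separated the groups. Its lowest knockout sum, 21594, lay above its highest wild-type sum, 21316. Cd24a, Krt18 and Krt8, the brightest genes of that list, weigh most in the sum. They differed by only 0.05, 0.08 and 0.04 (limma adjusted p = 0.79, 0.665 and 0.911). Groups without overlap were also found for 26.5% of all tested probe sets, and no such share was computed for sums. Of the 12 tested genes of that list 9 had positive differences and 0 were called. The summed level of the 7 measured members spanned 3626 to 4861 in knockout ovaries and 3717 to 4250 in wild type, so the groups overlapped. The part of these tissues in the members' differences was not tested.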

How the data were processed

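The authors deposited 1 linear intensity per probe set, made with GCRMA per the submitters' processing notes; version and settings are not given in the sources used here. Small differences among dim probe sets, near the floor, carry little meaning. Values were log2 transformed. From 45101 probe sets, 64 controls were removed and 22040 passed the filter. Symbols came from the platform annotation, checked by gene identifier against RefSeq (GRCm38.p6), which changed 0.

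limma 3.58.1 (R 4.3.3) fitted genotype alone, with lmFit and trended eBayes, 2-sided, and Benjamini-Hochberg adjustment over all tested probe sets; the threshold was 0.05. Each gene was represented by its tested probe set with the highest mean. The number of arrays limits the precision. Alternatives were other filters, eBayes forms, array weights, a replicate block, scalings, probe set choices, an offset and leaving out each array. The named genes are all members, in each list of related genes the called genes (at most 4) or, with 0 called, that with the smallest p, at most 2 names from each list of other cell types beside markers named for lying under the testing level or for a second probe set, and the 3 genes most like the members. Other names are marked. Members and lists were chosen with earlier results of these data known.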

Additional observations from a re-analysis of the deposited data

How the results depend on the processing

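Under each alternative run, 0 members and 0 member probe sets passed the threshold. Lhx1, Cdh16, Pax8 and Cdh6 kept the sign of their difference in each alternative run, with ranges of 0.25 to 0.55, 0.22 to 0.41, 0.05 to 0.27 and -0.42 to -0.18, and their lowest limma adjusted p were 0.101, 0.118, 0.330 and 0.260. The stricter filter left Cdh6 untested. Differences close to 0 changed sign: Wfdc2 with median centring (0.09) and without wild-type replicate 3 (0.01), Emx2 without knockout replicate 2 (-0.11), and the dimmer Lhx1 probe set without knockout replicate 2 (-0.09) or wild-type replicate 1 (-0.10). The cause was not tested. Median centring shifted the median of all tested probe sets by 0.14 and that of the members to 0.24. Leaving out single arrays gave a members' median of 0.04 to 0.16, Wfdc2 differences of -0.12 to 0.01, Emx2 differences of -0.11 to 0.19 and differences of -0.10 to 0.31 for the dimmer Lhx1 probe set. With no filter Gata3 differed by 0.74 (limma adjusted p = 0.243).

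In the lists of related genes, 2 genes were called with no filter (Hnf4a and Lrp2), 1 with the replicate block (Hnf4a), and 0 to 3 when single arrays were left out: Itga8 and Esrp1 without knockout replicate 2, and Etv5, Hnf4a and Osr1 without knockout replicate 3. Calls were also made with array weights (Itga8, Esrp1 and Hnf4a), median centring (Amhr2, Krt7 and Esrp1), quantile normalization (Itga8), eBayes without the trend (Lrp2) and after removal of multi-transcript probe sets (Itga8). Lrp2 was over the testing level on the wild-type arrays alone, and its fold was 0.86 with dim arrays set at that level. In all, 8 of the 44 genes were called in at least 1 of these 9 alternatives. The matching share over all tested genes was not computed, so this count cannot be read as high or low. Taken singly, these alternatives called 1.85% to 5.33% of all genes tested in them. Deviations of same-numbered samples correlated at -0.247 to -0.165. With 3 arrays a group, these values cannot decide whether the numbers pair the samples, and the labels state no pairing. The replicate block left 0 members called and their median at 0.10, and took the called genes from 422 to 220 of 11897. Counts of all called genes also moved by over 1.5 times with no filter (727 of 18193), median centring (634), without knockout replicate 1 (253) and without wild-type replicates 1, 2 and 3 (162, 158 and 174).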
